A study of Mus musculus with 32 samples.

Results

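The troponin genes of mouse GAS muscle, the gastrocnemius of the calf, were followed for 28 d after the sciatic nerve was cut. They are 8 genes of the 33397 in the deposited table, taken by their symbols: Tnni1, Tnni2 and Tnni3 for troponin I, Tnnt1, Tnnt2 and Tnnt3 for troponin T, and Tnnc1 and Tnnc2 for troponin C. All 8 were in the table, and all 8 were among the 22071 genes that passed the filter on low values. RNA-seq covered 32 samples, 4 at each of 0, 1, 3, 5, 7, 14, 21 and 28 d post denervation. According to the labels, every animal was a C57BL/6 mouse with sciatic nerve transection, the 0 d group included, and the labels carry no allele or drug. By the study's methods the mice were male, and the operation cut a piece out of the left sciatic nerve. The methods describe young adult animals, and the labels give no age. The study's text compares denervated GAS muscle with a sham, nondenervated group, whereas the labels list transection for 0 d too, so whether the 0 d samples are that sham group is not settled by the labels. Each sample is named below by its day and a letter from a to d, as the table gives 4 columns per time point without tying them to single animals. The p-values therefore measure the spread between these samples.

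Troponin is the calcium switch of the thin filament of striated muscle. Troponin C binds calcium, troponin I blocks the contact between actin and myosin until it does, and troponin T anchors the complex to tropomyosin. Fast fibres carry the products of Tnni2, Tnnt3 and Tnnc2, and slow fibres those of Tnni1, Tnnt1 and Tnnc1. Heart muscle carries Tnni3, Tnnt2 and again Tnnc1, and Tnnt2 is also expressed in embryonic skeletal muscle. GAS muscle of the mouse is mostly fast.

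The members other than troponin C lie in pairs of neighbouring genes that each join a troponin I gene to a troponin T gene. On GRCm38, Tnni1 (ENSMUSG00000026418) lies on chromosome 1 from 135779434 to 135810989, and Tnnt2 (ENSMUSG00000026414) follows it from 135836354 to 135852260, with 25364 bases between them. Tnni2 (ENSMUSG00000031097), at 142441808 to 142444410 of chromosome 7, and Tnnt3 (ENSMUSG00000061723), at 142498836 to 142516009, are 54425 bases apart. Tnnt1 (ENSMUSG00000064179), at 4504570 to 4516382 of chromosome 7, and Tnni3 (ENSMUSG00000035458), at 4518305 to 4524229, are only 1922 bases apart. Tnnc1 (ENSMUSG00000091898) stands alone on chromosome 14 from 31208312 to 31211729, as does Tnnc2 (ENSMUSG00000017300) on chromosome 2 from 164777161 to 164779967.

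The promoters of the 3 slow genes and of Tnnt2 are shown because these genes carried the changes described further on. Each run is the 150 bases before a RefSeq start on GRCm38.p6, read 5′ to 3′ on the strand of the gene. Tnni1 is shown at chr1:135799271-135799420 (+), Tnnt1 at chr7:4515976-4516125 (-), Tnnc1 at chr14:31208162-31208311 (+) and Tnnt2 at chr1:135836184-135836333 (+). Capitals mark E-boxes (CANNTG, the site of the myogenic factors) and the M-CAT core (CATTCC, the site of the TEAD factors), each searched on both strands.
Tnni1: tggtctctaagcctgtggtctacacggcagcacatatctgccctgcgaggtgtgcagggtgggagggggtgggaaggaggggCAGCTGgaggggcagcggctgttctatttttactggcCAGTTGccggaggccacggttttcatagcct
Tnnt1: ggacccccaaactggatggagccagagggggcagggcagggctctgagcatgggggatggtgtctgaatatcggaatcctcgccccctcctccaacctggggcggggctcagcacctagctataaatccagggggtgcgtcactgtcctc
Tnnc1: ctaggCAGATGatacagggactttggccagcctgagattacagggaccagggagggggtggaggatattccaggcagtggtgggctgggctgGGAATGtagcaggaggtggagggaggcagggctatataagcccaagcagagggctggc
Tnnt2: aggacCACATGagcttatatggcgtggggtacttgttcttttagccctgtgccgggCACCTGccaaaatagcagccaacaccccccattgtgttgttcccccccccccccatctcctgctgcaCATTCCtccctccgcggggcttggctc

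An M-CAT core began 27 bases before the start of Tnnt2 shown here and 58 bases before that of Tnnc1, on the reverse strand there. Of the 32851 RefSeq windows of this length, 7.6% held an M-CAT core and 47.7% held an E-box. RefSeq has another start for Tnni1 and for Tnnt2, whose windows (not shown) hold 1 E-box and no M-CAT core for Tnni1 and neither motif for Tnnt2. In the windows shown, Tnni1 had 2 E-boxes, Tnnt2 had 2 and Tnnc1 had 1, and no E-box overlapped an M-CAT core. The window of Tnnt1 held neither motif, but had the TATA box letters TATAAA 30 bases before its start. Of all windows, 7.6% held these letters at any place on either strand. Searches for the MEF2 site (0.3% of all windows) and the CArG box (0.9%) found no match in these 4 windows, which says only that those letters are not there. Tnni3 and Tnnc2 each had an entry with 1 E-box. A match is a run of letters and was not tested as a binding site.

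The libraries were of similar depth, with 14199916 to 17561594 fragments recovered per sample. Values are in FPKM, fragments of a gene scaled to its exon length and to the size of the library. That length is of all annotated exons merged, 7752 bases for Tnnt2 and 3600 for Tnni1 against 1583 for Tnnt3 and 1497 for Tnni2. Levels and shares compared between genes depend on these lengths. Differences were tested with limma on log2(FPKM + 1), a scale that understates the change of genes near 0. A gene was called at a Benjamini-Hochberg adjusted p under 0.05 over all 22071 genes and at least 1.5-fold. Mitochondrial genes took 14.47% to 18.21% of the fragments at 0 d and 6.7% to 17.09% later. The extraction text of the labels speaks of retinas, while the tissue label is gastrocnemius muscle. Skeletal muscle genes were high in every sample, with creatine kinase Ckm between 642 and 3319 FPKM and titin (Ttn) between 43.2 and 89.8 FPKM. Of 8 retina genes 7 were in the table, and none averaged 1 FPKM at any time point. The only one to pass the filter, Opn1sw, reached at most 0.401 FPKM in a sample. On the first principal component (41.3% of the variance) sample 3 d a lay at -20.3, between the other 3 d samples (0.2 to 6) and the 1 d samples (-51.5 to -39.4), so the 3 d differences are also given without it.

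**Figure D1:**
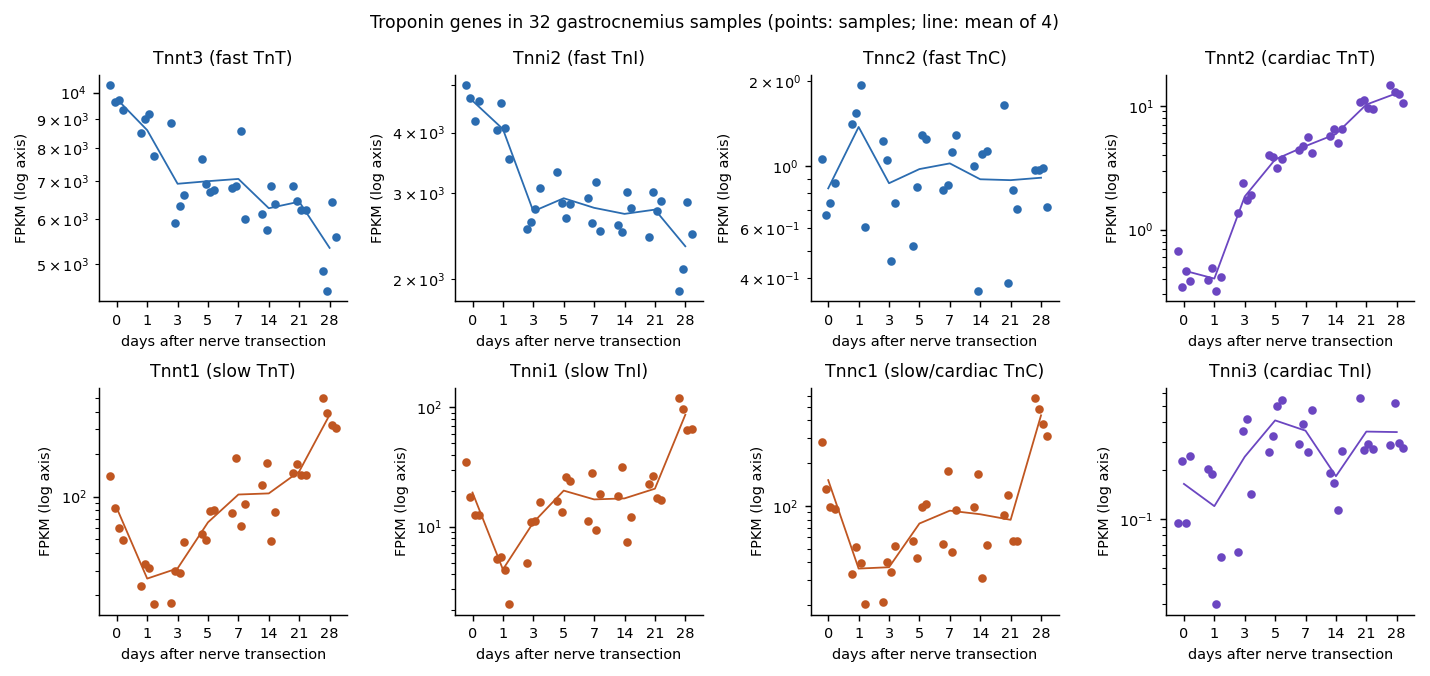
FPKM of the 8 troponin genes on log axes against days after nerve transection, with a point for each of 32 samples and a line through the means of 4. The deposited values of Tnnt3 and Tnni2 are lower from 3 d on (after quantile normalization Tnni2 changes sign at 3 and 5 d and Tnnt3 at 14 d), Tnnt2 climbs from 3 d on, and the 3 slow genes dip at 1 d and stand highest at 28 d.

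The fast genes held most of the summed troponin I and T FPKM throughout. Tnni2, the fast troponin I, stood at 5009, 4718, 4227 and 4632 FPKM in the samples at 0 d. It was between 3522 and 4606 FPKM at 1 d, where its log2 difference of -0.20 was not called (limma adjusted p = 0.245). From 3 d on every sample was below every 0 d sample, with 2538, 2625, 2794 and 3075 FPKM at 3 d. The lowest mean came at 28 d, with 1894, 2104, 2879 and 2477 FPKM. Levels at 3, 5, 7, 14 and 21 d overlapped one another and stayed between 2439 and 3327 FPKM. Tnni2 fell at every time point from 3 to 28 d (log2 -0.75 at 3 d and -1.01 ± 0.12 SE at 28 d, limma adjusted p = 3.91e-08), except that after quantile normalization the sign turned at 3 d (0.22) and 5 d (0.23), uncalled. Quantile normalization also ended the calls of Tnni2 at 7 d (-0.01, adjusted p = 0.949), 14 d (-0.50) and 28 d (-0.58), and TPM those at 5 d (-0.48), 7 d (-0.54) and 14 d (-0.56). Without sample 3 d a the 3 d difference was -0.72 (3.2e-05). The exact permutation test of 4 against 4 samples, two-sided, gave p = 0.0286 at each of these time points, the smallest it allows. In bulk tissue, less mRNA per fast fibre and fewer fast fibres cannot be told apart, and the same holds for the other members and their cells.

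Tnnt3, the fast troponin T, was the most abundant member, at 10320, 9645, 9695 and 9339 FPKM at 0 d. By 28 d it stood at 4879, 4494, 6426 and 5586 FPKM. In the deposited values all samples from 1 d on were below all samples at 0 d (two-sided exact permutation p = 0.0286 at each time point), although with quantile normalization its differences were above 0 from 1 to 14 d and none was called. With all samples its difference reached 1.5-fold at 14 d (log2 -0.64 ± 0.13 SE, limma adjusted p = 0.000165), 21 d (-0.60, 0.000398) and 28 d (-0.88, 1.95e-06), where quantile normalization gave 0.11, 0 and -0.30 in turn. TPM ended the calls of Tnnt3 at 14 d (-0.43) and 21 d (-0.46), and the 21 d difference was under 1.5-fold without sample 0 d a (-0.57), 21 d c (-0.58) or 21 d d (-0.58). At 3 d the value was -0.51, and without sample 3 d a it was -0.63 and called lower (limma adjusted p = 0.000143). That sample had 8843 FPKM where the others had 5902 to 6624. With median-ratio scaling Tnnt3 was called lower already at 3, 5 and 7 d (log2 -0.75, -0.87 and -0.86).

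All 3 slow genes were lower at 1 d and higher at 28 d. Tnnc1, troponin C of slow fibres and heart, stood at 283, 132, 98.3 and 94.95 FPKM at 0 d, and at 33.4, 51.6, 39.5 and 20.3 FPKM at 1 d. At 28 d it reached 575, 480, 375 and 309 FPKM. The 1 d samples all lay below the 0 d samples, and the 28 d samples all lay above those of every other time point. The log2 differences were -1.96 ± 0.46 SE at 1 d (limma adjusted p = 0.00119), -1.93 at 3 d (0.00085) and 1.62 at 28 d (0.00397). Between 5 and 21 d it stayed under the 0 d mean, at group means of 75.2 to 92.6 FPKM against 152 ± 88.9 (SD, n = 4). Those differences of -0.76 to -0.95 were not called as deposited, but all 4 were called lower with median-ratio scaling (-1.14 to -1.33). Tnnc1 was also called lower at 7 d without sample 7 d b (-1.13) and at 14 d without sample 14 d b (-1.31).

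Tnni1, the slow troponin I, changed at the same 2 ends of the series at lower levels. It stood at 34.6, 17.8, 12.4 and 12.5 FPKM at 0 d, at 5.32, 5.62, 4.34 and 2.24 FPKM at 1 d, and at 120, 97.7, 64.0 and 65.8 FPKM at 28 d. Again the 1 d group lay wholly below 0 d and the 28 d group wholly above all others. Its log2 difference was -1.85 ± 0.39 SE at 1 d (limma adjusted p = 0.00039) and 2.19 ± 0.39 at 28 d (2.63e-05). At 3, 5, 7, 14 and 21 d its samples overlapped with those of 0 d, and the differences of -0.75 to 0.20 were not called, although that of 3 d was with median-ratio scaling (-0.98, limma adjusted p = 0.0336) and with quantile normalization (-0.98, 0.0323). Without sample 3 d a the 3 d value of Tnni1 was -0.46 (0.388).

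Tnnt1, the slow troponin T, was the only slow member called above 0 d before 28 d. Its values were 141, 82.5, 59.5 and 49.0 FPKM at 0 d and 23.4, 33.1, 31.3 and 17.3 FPKM at 1 d. At 3 d they were 17.8, 29.8, 28.9 and 47.8 FPKM, still below every 0 d sample. By 21 d all 4 samples (147, 170, 144 and 142 FPKM) were above 0 d, and at 28 d they stood at 498, 393, 322 and 304 FPKM. The log2 differences were -1.55 ± 0.35 SE at 1 d (limma adjusted p = 0.00104), -1.35 at 3 d (0.00232), 0.97 at 21 d (0.0282) and 2.27 at 28 d (4.29e-06). The 21 d call was lost with median-ratio scaling (0.67, adjusted p = 0.138), with quantile normalization (0.79, 0.0741) and without sample 0 d c (0.0823), 0 d d (0.115) or 21 d b (0.0663).

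At 1 d, 4 of 8 Schwann cell markers were also called lower (median log2 -0.95), and their part in the slow gene values was not tested. Sample 0 d a had the highest level of all 3 slow genes at 0 d. Without it the 1 d differences were -1.54 for Tnni1, -1.25 for Tnnt1 and -1.61 for Tnnc1, and the 28 d differences were 2.50, 2.56 and 1.97. All 6 remained past both thresholds. Without sample 3 d a, the 3 d differences of Tnnt1 and Tnnc1 were -1.12 (limma adjusted p = 0.0138) and -1.69 (0.00497), both still called.

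**Figure D2:**
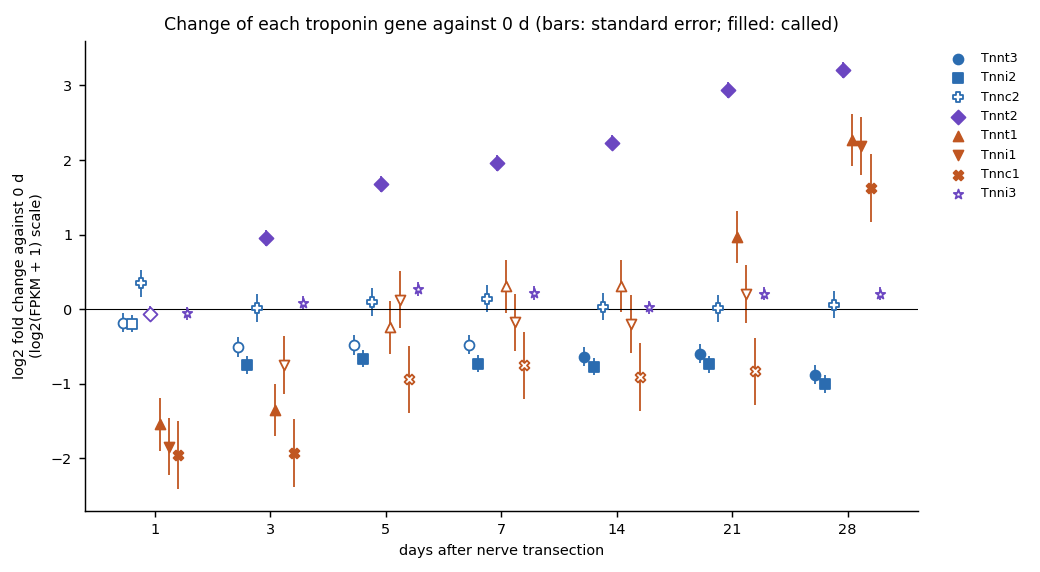
Log2 fold change of each troponin gene against 0 d, on the log2(FPKM + 1) scale, with bars for the standard error and filled markers for called differences. The 3 slow genes sit near -1.5 to -2 at 1 d and near 1.6 to 2.3 at 28 d, while Tnnt2 rises from 0.95 at 3 d to 3.21 at 28 d.

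Of the cardiac troponin genes, Tnnt2 was called at 6 time points and Tnni3 at none. Tnnt2, troponin T of heart and embryonic muscle, was low at 0 d (0.678, 0.346, 0.465 and 0.382 FPKM) and still so at 1 d (0.320 to 0.486 FPKM). At 3 d it stood at 1.36, 2.38, 1.74 and 1.91 FPKM, at 5 d at 3.99, 3.85, 3.15 and 3.74 FPKM, and at 28 d at 14.7, 12.9, 12.3 and 10.4 FPKM. From 3 d on every sample was above every sample of 0 and 1 d. In the order of group means, neighbours were apart from 0 to 3 d, 3 to 5 d, 5 to 7 d and 14 to 21 d, and overlapped between 7 and 14 d and between 21 and 28 d. The log2 difference from 0 d grew from 0.95 ± 0.11 SE at 3 d (limma adjusted p = 1.13e-08; 1.04 without sample 3 d a) through 1.68, 1.96, 2.23 and 2.94 (5, 7, 14 and 21 d in turn) to 3.21 at 28 d (1.6e-19). It was the only member called higher at 3, 5, 7 and 14 d, and all 6 calls held with each sample left out in turn. Its 28 d mean of 12.6 ± 1.77 FPKM (SD, n = 4) was nonetheless small beside the 5346 FPKM of Tnnt3.

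Tnni3, the cardiac troponin I, had 1 to 20 fragments per sample. Its group means ran from 0.121 ± 0.0891 FPKM at 1 d to 0.406 ± 0.135 FPKM at 5 d (SD, n = 4), against 0.165 ± 0.0817 FPKM at 0 d. Every neighbour in the order of its levels overlapped with the next. No difference from 0 d reached 1.5-fold on the log2(FPKM + 1) scale. In FPKM, the means were 2.08 to 2.46 times that of 0 d at 5, 7, 21 and 28 d, and at each of these all samples were above all 0 d samples (exact permutation p = 0.0286, the smallest 4 against 4 samples allow). The largest log2 difference was that of 5 d (0.27, limma adjusted p = 0.0149), which was called with a pseudocount of 0.1 (0.95), with TPM (0.60) and with limma-voom on fragments (1.28). The difference between Tnni3 and Tnnt2 in their changes was not tested. The exons of Tnni3 share 86 bases (4.2% of 2063) with Dnaaf3 on the same strand, so reads there cannot be assigned to either gene.

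Of a list of 8 heart genes (Myh6, Myl7, Mybpc3, Nppa, Nppb, Ryr2, Nkx2-5 and Tnni3k), 7 were in the table and 2 passed the filter. The summed level of the 7 was 0.477 to 0.674 FPKM at 0 d and 0.322 to 0.913 FPKM at 28 d, and Nkx2-5, a defining heart factor, was listed at 0 in every sample up to 21 d and averaged 0.0176 FPKM at 28 d. At 28 d limma called 0 of the 2 tested, with 0 at an unadjusted p under 0.05 and 0 by limma-voom, which called 1 of them at each of 3, 5, 7, 14 and 21 d. Of these 2, Myh6, the cardiac myosin heavy chain, had means of 0.20 to 0.34 times its 0 d mean at those time points, and the summed level was 0.119 to 0.323 FPKM at 5 d.

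Tnnc2, the fast troponin C, was listed at a level unlike those of its fast partners. It had 5 to 25 fragments per sample and group means of 0.832 ± 0.169 FPKM at 0 d to 1.37 ± 0.560 FPKM at 1 d (SD, n = 4), where Tnni2 and Tnnt3 had 4647 and 9749 FPKM at 0 d. Neighbours in the order of its levels overlapped, and log2 differences from 0 d lay between 0.01 and 0.35, none of them called (limma adjusted p = 0.18 to 0.994). By GENCODE release 21, 592 of its 800 exonic bases (74%) are also covered by the last exon of a transcript of Ube2c, a cell cycle gene on the opposite strand. Whether the counting used strand is not given in the sources used here, and reads in the shared bases cannot be assigned without it. Ube2c itself stood at 0.529 to 2.85 FPKM. The part of this overlap in the low values was not tested, and for that reason no shares of troponin C were computed.

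**Figure D3:**
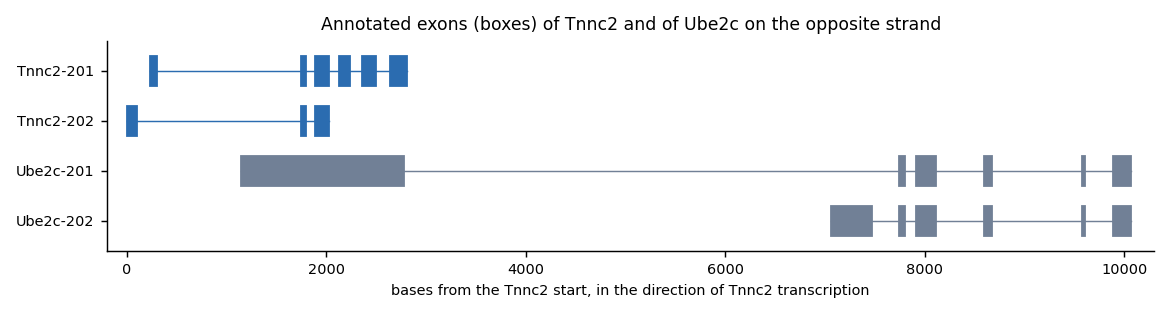
Annotated exons (boxes) of 2 transcripts of Tnnc2 and 2 of Ube2c, on an axis of bases from the Tnnc2 start in the direction of its transcription. The long last exon of Ube2c-201, from 1145 to 2777 bases, covers all exons of both Tnnc2 transcripts but the first of each and a short end of the last of one of them.

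The calls of the 8 genes at each time point were as follows, and a call at one time point and none at another is not a tested difference between them. At 1 d 3 members were lower (Tnni1, Tnnt1 and Tnnc1) and 0 higher, where 2.49% of all tested genes were lower and 6.34% higher. Limma-voom gave the same 3, and no member that was higher had an unadjusted p under 0.05. At 3 d 3 were lower (Tnni2, Tnnt1 and Tnnc1) and 1 higher (Tnnt2), against 6.03% and 13.2% of all genes. At 5 d and again at 7 d, Tnni2 was lower and Tnnt2 higher, where the shares of all genes were 3.86% and 14.9% at 5 d and 4.1% and 15.4% at 7 d. At 14 d Tnni2 and Tnnt3 were lower and Tnnt2 higher, against 3.83% lower and 14.6% higher of all genes. Tnnt3 had missed only the 1.5-fold threshold at 3, 5 and 7 d, and its step from 7 to 14 d was -0.16 (adjusted p = 0.693). At 21 d Tnni2 and Tnnt3 were lower and Tnnt1 and Tnnt2 higher, against 3.93% and 11.8%. At 28 d 6 of the 8 were called, Tnni2 and Tnnt3 lower and Tnni1, Tnnt1, Tnnt2 and Tnnc1 higher, where 4.1% of all genes were lower and 14.2% higher. These comparisons share the 4 samples of 0 d. The median log2 difference of all tested genes was 0.139 at 28 d, and 0.018 with median-ratio scaling, which also took the share of higher among called genes from 77.6% to 44.8%. Quantile normalization gave 49.6% and TPM 87.6%. The median was 0.289 with a filter at FPKM 1, 0.328 with TPM and 0.393 with limma-voom. The 6 calls at 28 d had sizes of 0.88 to 3.21, and the part of such a shift in them was not tested. After quantile normalization Tnni2 was called lower at 21 d (-0.59) but not at 28 d (-0.58, under 1.5-fold), and Tnnt3 was not called at any time point.

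Steps between neighbouring time points placed the changes in time. From 1 to 3 d Tnni1 (log2 1.09, limma adjusted p = 0.0304) and Tnnt2 (1.01, 7.74e-09) rose, 2 of 8 members, where 10.6% of all genes were called. The step of Tnni1 was lost without sample 1 d c, 1 d d, 3 d b, 3 d c or 3 d d, 5 of the 8 samples compared, and with limma-voom (adjusted p = 0.0521). From 3 to 5 d Tnnt1 (1.11, adjusted p = 0.0214) and Tnnt2 (0.73) rose, against 5.76% of all genes. That of Tnnt1 was lost without 3 d a, 5 d c or 5 d d, and that of Tnnt2 with quantile normalization. From 5 to 7 d limma called 0 members (0.657% of all genes), with 1 at an unadjusted p under 0.05, and from 7 to 14 d 0 members (0.634%), with 2. Limma-voom also called 0 in both. From 14 to 21 d Tnnt2 alone rose (0.70, adjusted p = 0.000229), among 0.453% of all genes.

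Of the steps between neighbouring time points, that from 21 to 28 d had the fewest genes called, and Tnnc1 and Tnni1 had their largest differences there. Only 44 of 22071 genes were called (0.199%), and 2 of them were members. Tnnc1 rose from 86.9, 119, 56.8 and 57.1 FPKM to 575, 480, 375 and 309 FPKM (log2 2.46 ± 0.46 SE, limma adjusted p = 0.00522). Tnni1 rose from 22.6, 26.5, 17.3 and 16.8 FPKM to 120, 97.7, 64.0 and 65.8 FPKM (1.98 ± 0.39 SE, adjusted p = 0.00789), and its call was lost without sample 28 d a. For Tnnt1 the step was 1.30 (adjusted p = 0.119, and 0.0394 with limma-voom), although its groups did not overlap. In the limma fit of those 8 samples alone 0 members were called, and Tnni1, Tnnt1 and Tnnc1 all had an adjusted p of 0.0558. In the fit of all 32 samples 6 members had an unadjusted p under 0.05, and limma-voom called 3, among 61 of 22054 genes. The share of all genes at an unadjusted p under 0.05 was not computed for any step. From 7 to 28 d, 4 members rose (Tnni1 2.37, Tnnt1 1.97, Tnnt2 1.25 and Tnnc1 2.38), where 2.96% of all genes were called.

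The share of each isoform within a sample is the same under any scaling that multiplies all genes of a sample by 1 factor, which quantile normalization does not do. These shares describe the members, depend on the merged exon lengths and were not tested. Tnni1 made up 0.406% ± 0.192 of summed troponin I FPKM at 0 d, 0.106% ± 0.0299 a day later, 0.747% ± 0.173 at 21 d and 3.78% ± 1.74 by 28 d (SD, n = 4 each). In the samples of 28 d it was 5.94%, 4.44%, 2.18% and 2.59%, all above the highest value elsewhere, 1.24% in sample 14 d b. Tnnt1 made up 0.831% ± 0.370 of troponin T at 0 d, 0.302% ± 0.0650 a day later, 2.29% ± 0.197 at 21 d and 6.80% ± 2.19 by 28 d. Tnnt2 went from 0.00472% of troponin T at 0 d to 0.224% ± 0.0516 at 28 d. Tnni2 still held 96.2% of summed troponin I FPKM and Tnnt3 93.0% of summed troponin T FPKM at 28 d. In sample 28 d a, Tnni2 had 47597 fragments and Tnni1 7223, and Tnnt3 had 129669 and Tnnt2 1918.

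**Figure D4:**
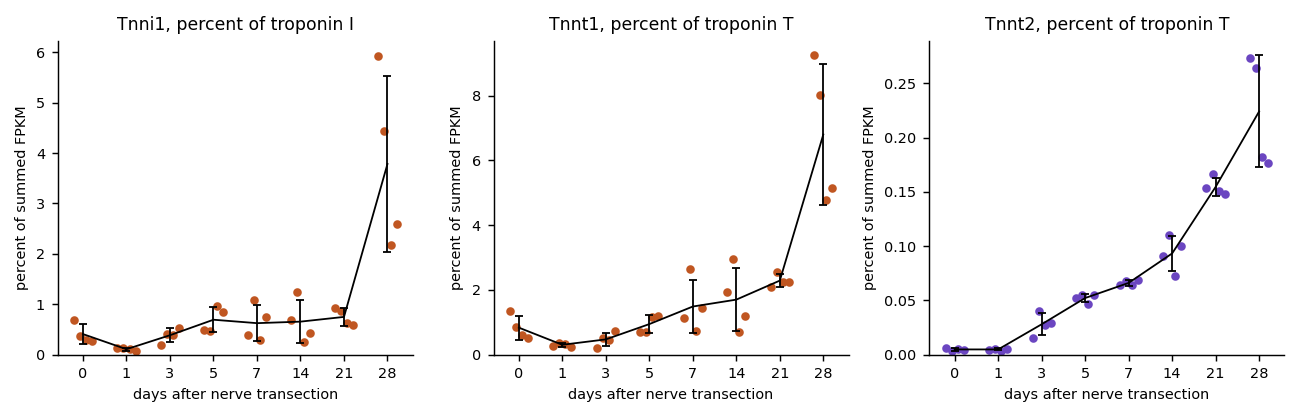
Percent of summed troponin I FPKM held by Tnni1 and of summed troponin T FPKM held by Tnnt1 and Tnnt2, by days after nerve transection, with points for samples and a line with bars for mean and SD (n = 4). Tnni1 and Tnnt1 reach 3.78% and 6.80% at 28 d, and Tnnt2 grows in steps to 0.224%.

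Of 9 slow fibre genes outside the troponins, 7 were lower at 1 d (median log2 -1.07, against 0.03 for all genes) and 5 were higher at 28 d (median 1.11, against 0.14). Myh7, the slow myosin heavy chain, went from 30.8 ± 11.3 FPKM at 0 d to 6.64 ± 1.62 at 1 d and 129 ± 46.2 at 28 d (SD, n = 4; log2 2.03 ± 0.47 SE at 28 d, limma adjusted p = 0.000624). Myl6b, a slow myosin light chain, rose from 3.25 ± 0.771 to 41.2 ± 13.4 FPKM (3.28, 9.72e-11), and Casq2, the slow and cardiac calsequestrin, from 19.8 ± 3.42 to 50.5 ± 13.2 FPKM (1.28, 1.39e-05). The mean of Myl6b was already 8.7 times that of 0 d at 5 and 7 d, and 5.12 and 4.19 times at 14 and 21 d. The summed level of the list was 497 to 1151 FPKM at 0 d, 326 to 387 at 1 d, 674 to 901 at 21 d and 1136 to 1698 at 28 d. From 21 to 28 d its median difference was 1.12, and Myh7 (2.49), Myh7b (0.76) and Myl6b (1.48) were called, as was the slow tropomyosin Tpm3 (1.82).

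Tnni1, Tnnt1 and Tnnc1 were highest in the same sample at 7 of the 8 time points, and Tnnt1 and Myl2, the slow regulatory light chain, were highest in the same sample as Tnnc1 at all 8. The count was 7 for Myh7 and Myl3, 6 for Tpm3 and 5 for Atp2a2, and among members that are not slow it was 5 for Tnnt2, 4 for Tnni2 and 1 for Tnnt3. At 7 d, for example, sample b had 28.4, 186 and 176 FPKM of Tnni1, Tnnt1 and Tnnc1, with 51.8 FPKM of Myh7 and 119 FPKM of Myl2, while sample c had 9.33, 62.4 and 47.1 FPKM with 8.90 and 60.2 FPKM. How much slow muscle each sample held was not tested.

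**Figure D5:**
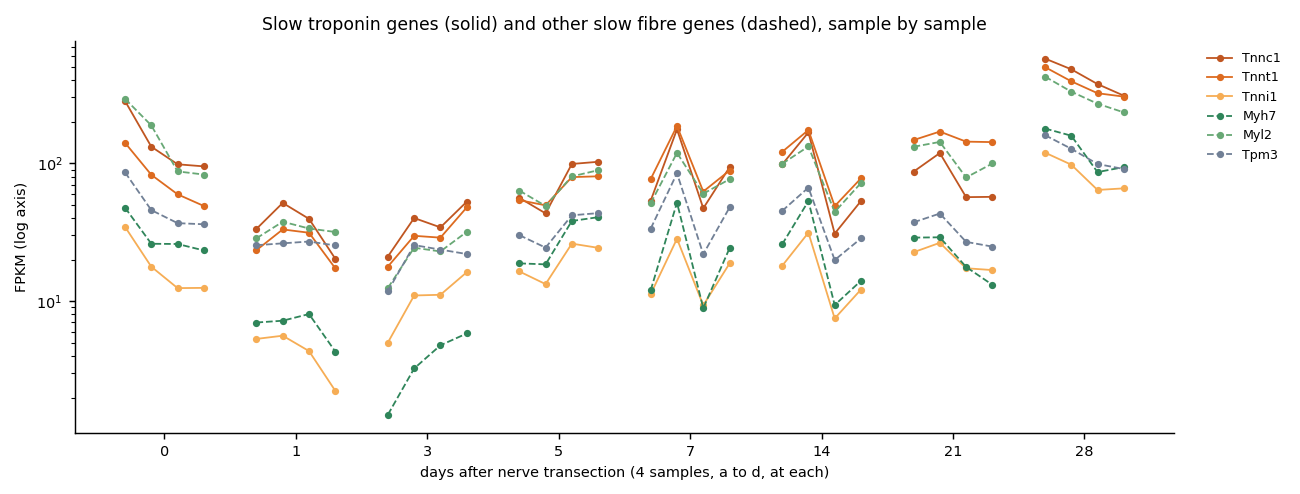
FPKM on a log axis of the slow troponins (solid lines) and of Myh7, Myl2 and Tpm3 (dashed lines) in each sample, grouped by days after nerve transection, with samples a to d from left to right. The 3 slow troponins are highest in the same sample at 7 of 8 time points, and the 28 d samples stand highest for all 6 genes except that Myl2 in sample 0 d a reaches 293 FPKM.

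Of 10 fast fibre genes outside the troponins, 9 were lower at 3 d (median log2 -1.37, and again 9 at -1.46 without sample 3 d a), 3 were lower and 1 higher at 14 d, and 6 were lower and 2 higher at 28 d (median -0.69, against 0.14 for all genes). With quantile normalization 4 of the 10 were called at 28 d and with TPM 5, and with median-ratio scaling 8 at 14 d. Mybpc2, the fast myosin-binding protein C, fell from 1098 ± 170 to 69.9 ± 25.4 FPKM at 28 d (SD, n = 4; log2 -4.01, limma adjusted p = 2.18e-15). Myh4, the IIb myosin heavy chain, fell from 5531 to 2629 FPKM (-1.07), and Myh1, the IIx form, rose from 500.5 to 918 FPKM (0.90). Of 10 other thin filament genes, 3 were higher and 3 lower at 28 d (median -0.04). Tpm1 was lower (-1.05), and Tpm3 (1.26) and Lmod2 (1.91), a leiomodin of the thin filament, were higher. Among these, Actc1, the cardiac and embryonic actin, fell at 3 to 21 d (-1.84 to -1.06) where Tnnt2 rose, and was 47.7 ± 16.1 FPKM at 28 d against 51.7 ± 14.9 at 0 d.

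Of 8 genes of embryonic and denervated muscle, all 8 were higher from 5 to 28 d, as was Tnnt2 (median log2 3.56 at 28 d). Their mean summed level was 19.0 FPKM at 0 d and 455.6 FPKM by 7 d, and stayed between 455.6 and 496.0 FPKM thereafter. From 7 to 28 d their median difference was 0.18, with 2 of 8 called higher, Chrng (0.91) and Ncam1 (0.82), and Tnnt2 rose by 1.25. From 14 to 21 d their median was 0.03, and Tnnt2 rose by 0.70. The difference between Tnnt2 and this list was not tested. The γ subunit of the acetylcholine receptor, Chrng, went from 0.0394 FPKM at 0 d to 57.7 ± 9.65 FPKM at 28 d, Chrna1 from 3.56 ± 0.458 to 198 ± 19.9 FPKM, and the myogenic factor Myog from 1.97 ± 0.465 to 120 ± 9.23 FPKM (SD, n = 4). Myog was already up at 1 d (log2 3.15, limma adjusted p = 3.47e-17), when Tnnt2 was not. Of 15 factors known to act on muscle gene promoters, 5 were higher and 1 lower at 28 d (median 0.13, against 0.14 for all genes). They included Myod1 (3.44), Myf6 (2.58) and Mef2a (1.74). Tead4, of the family that binds M-CAT, went from 2.71 ± 0.421 to 10.7 ± 0.619 FPKM (1.66, adjusted p = 1.41e-14) and was called from 3 d on, whereas Tead1 (0.07), Tead2 (0.13) and Tead3 (0.26) were not called at 28 d and Tead1 was lower at 1 d (-0.66). The factor that was lower at 28 d was Srf (-0.63), which binds the CArG box. Prox1, a factor of slow fibres, rose at 28 d (0.75).

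Over the 32 samples, the 3 genes most like each slow member in log2(FPKM + 1) were slow fibre isoforms, apart from Pdgfrl with Tnnt1 (0.912). These coefficients describe samples that share time points and libraries. Atp2a2, the slow and cardiac calcium pump, was closest to Tnni1 (Pearson r = 0.969) and to Tnnt1 (0.930), and Tpm3 was closest to Tnnc1 (0.963), followed by Myh7 (0.945) and Myl2 (0.936). Aldoa, a glycolytic enzyme, was closest to both Tnni2 (0.924) and Tnnt3 (0.953). Tnnt2 was most like Lrrcc1 (0.980), Cgref1 (0.977) and Nrcam (0.972). The best coefficients of Tnni3 (0.721) and Tnnc2 (0.543) were lower.

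Marker genes of other cell types also changed post denervation. All 8 macrophage genes were higher at 3 d (summed level 146 to 215 FPKM at 0 d and 299 to 1032 at 3 d), and 6 of 8 at 28 d. Sample 3 d a had the 299 FPKM, and without it the other 3 d samples had 522 to 1032 FPKM and again 8 genes were called. Of 8 Schwann cell genes, 6 were lower and 1 higher at 28 d (134 to 285 FPKM at 0 d and 34.9 to 51.2 at 28 d). Of 8 fibroblast genes, 4 were higher at 5 d (median log2 0.83) and 2 at 28 d (0.67), with 0 lower at either. At 1 d the Schwann cell sum was 45.3 to 195 FPKM, with a median difference of -0.95 beside -1.07 for the slow fibre genes. At that time point 3 of 8 macrophage genes were higher (median 0.65), and the medians of fibroblast, endothelial, smooth muscle, satellite cell and erythroid genes were -0.42, 0.05, -0.41, 0.00 and 0.13. From 21 to 28 d the median log2 differences of the macrophage and Schwann cell lists were 0.05 and 0.25, and those of fibroblast, endothelial, smooth muscle, satellite cell and erythroid genes were 0.03, 0.03, 0.08, 0.09 and 0.11, beside 1.12 for the slow fibre genes. Their part in the troponin values was not tested.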

How the data were processed

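Total RNA of GAS muscle was sequenced in 32 samples of 8 time points. The authors deposited FPKM values, 1 per gene and sample. The submitters' processing notes name CASAVA, HISAT2 2.1.0, DESeq2 and GRCm38. The counting tool, its strand setting and the annotation are not given in the sources used here. Columns were assigned to groups by their day, and the 4 columns without a day were taken as 0 d, the only time point left. There were 0 columns of other series.

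Identifiers were matched to GENCODE mouse release 21 (33356 of 33397 genes). Merged exon lengths turned FPKM into fragments, and 99.3% to 99.4% of values under 200 fragments came out whole within 0.05. Genes that reached 0.1 FPKM in 4 or more samples were tested on log2(FPKM + 1) by limma 3.58.1 in R 4.3.3 (lmFit, eBayes with trend, all 32 samples), which was tested on simulated data. A call took 1.5-fold and a Benjamini-Hochberg adjusted p under 0.05. The rest was done in Python 3.11.15 with scipy 1.17.1, numpy 2.4.6, matplotlib 3.10.9 and pandas 2.3.3. Promoters came from RefSeq (6 of 8 members). Tnni2 and Tnnt3 had no entry.

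Members and gene lists were chosen with earlier results of these data known. The genes named were the 8 members, genes of the lists where a list is described, with the 3 largest called changes at 28 d in full, and the 3 genes most like each member with a mean FPKM of at least 1. Alternatives covered the pseudocount, filter, scaling, TPM, variance trend, samples in the fit, limma-voom, thresholds and leaving out each sample.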

Additional observations from a re-analysis of the deposited data

Results flagged for a closer look

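In 64 groups of 4 samples (8 genes at 8 time points), 3 samples stood apart from the rest of their group by Dixon's criterion, where chance gives about 3.2. Tnni3 was at 0.557 FPKM in sample 21 d a, with the others at 0.269 to 0.290. It was at 0.519 FPKM in sample 28 d b, with the others at 0.277 to 0.293. Tnnc2 was at 0.713 FPKM in sample 28 d d, with the others at 0.967 to 0.983. Both genes had at most 25 fragments per sample, and neither was called at these time points.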

How the results depend on the processing

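Over 1057 values of the 56 differences from 0 d under alternatives, 952 kept direction and side of the thresholds, 55 changed sign with no call under either setting, 28 lost the call, 19 gained it and 3 reversed. The reversals came with quantile normalization: Tnni2 at 3 d (0.22) and 5 d (0.23) and Tnnt3 at 14 d (0.11). Counts of members called moved by over 1.5 times as follows. Quantile normalization gave 1 at 5, 7 and 14 d, 2 at 21 d and 1 for 5 against 3 d. Median-ratio scaling gave 4 at 5 and 7 d. TPM gave 1 at 7 and 14 d. A threshold of 2-fold gave 2 at 3 d, 1 at 5, 7, 14 and 21 d, 1 for 5 against 3 d and 0 for 21 against 14 d, and no fold threshold gave 4 at 5 d. For 3 against 1 d, no filter, a fit of the 8 samples alone and limma-voom each gave 1, and the fit of 8 samples alone gave 0 for 28 against 21 d. TPM called 7448 of all 22071 genes at 7 d and 7610 at 14 d, where 4308 and 4075 were called as reported. Quantile normalization called 3332 and 3097 of them, median-ratio scaling 3326 and 3116, and the 2-fold threshold 1579 and 1449. The causes were not tested.

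With each sample left out in turn, counts stayed at 3 at 1 d, 2 at 5 d and 6 at 28 d, and ran from 4 to 5 at 3 d, 2 to 3 at 7 d, 3 to 4 at 14 d, 3 to 4 at 21 d, 1 to 2 for 3 against 1 d, 1 to 2 for 5 against 3 d and 1 to 2 for 28 against 21 d. They stayed at 0 for 7 against 5 d and 14 against 7 d, 1 for 21 against 14 d and 4 for 28 against 7 d.

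No paired analysis was possible because the columns carry no numbers of the labels and the time points hold different animals, so no replicate block was used. Tnni3 and Tnnc2 had only 1 to 25 fragments per sample, which limits what their values can show.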
